A study of Mus musculus with 6 samples.

Results

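The 10 genes described here encode cytosolic and mitochondrial heat shock proteins: Hspa1a, Hspa1b, Dnajb1, Hsph1, Hsp90aa1, Hspa8, Hsp90ab1, Hspa9, Hspd1 and Hspe1. They were chosen by name, as the rows of the deposited signal table that carry one of these symbols or an older one, out of 28888 genes in all. Each of the 10 genes had 1 row: HSPA1A, HSPA1B, DNAJB1, HSP90AA1, HSPA8, HSP90AB1, HSPA9, HSPD1 and HSPE1 under these names, and HSPH1 under its older symbol HSP105. Mouse symbols are used below. The cells were long-term haematopoietic stem cells (LT-HSC) sorted from the bone marrow of male mice of strain C56 Bl/6, 2 months old. One group was taken 2 days after sex steroid ablation (SSA) and the other 2 days after a sham ablation, with 3 Illumina MouseWG-6 arrays in each group. The labels do not say which surface markers defined the sort, or whether each sample was 1 animal or a pool, so a p-value here reflects how these samples vary, which may be technical variation only.

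Heat shock proteins are chaperones: they bind unfolded or newly made proteins and help them to fold. Hsp70 proteins work in cycles of ATP hydrolysis that a J-domain partner such as Dnajb1 starts and a nucleotide exchange factor such as Hsph1 resets, and Hsp90 proteins take over kinases and receptors, steroid receptors among them, for the last steps of folding. In mitochondria Hspa9 pulls imported proteins in, and Hspd1 and Hspe1 form the barrel and the lid of a folding chamber. Heat and other protein-damaging stress activate heat shock factor 1 (HSF1), which binds inverted repeats of the letters GAA, called heat shock elements, before the inducible genes. Blood stem cells are known to make protein slowly and to be sensitive to misfolded protein.

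The promoters of 6 of the 10 genes were in the RefSeq table of build GRCm38.p6, as 9 promoter entries, and Dnajb1, Hsph1, Hspa1a, Hspa1b, Hspd1 and Hspe1 are those 6. They are shown because the members differ in this element, and they were searched for GAANNTTC or TTCNNGAA, the 2-unit element, and for GAANNTTCNNGAA or TTCNNGAANNTTC, the 3-unit element, which contains the 2-unit ones. Each pair of patterns covers both strands. The 4 stretches below hold bases before the start of transcription, 5′ to 3′, in lower case with matches in capitals.
Hspa1a, chr17:34972157-34972406, minus strand: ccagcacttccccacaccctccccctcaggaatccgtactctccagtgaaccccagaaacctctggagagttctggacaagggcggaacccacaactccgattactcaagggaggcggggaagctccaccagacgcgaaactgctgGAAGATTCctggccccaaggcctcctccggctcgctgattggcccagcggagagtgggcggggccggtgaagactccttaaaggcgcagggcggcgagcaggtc
Hspa1b, chr17:34959239-34959488, minus strand: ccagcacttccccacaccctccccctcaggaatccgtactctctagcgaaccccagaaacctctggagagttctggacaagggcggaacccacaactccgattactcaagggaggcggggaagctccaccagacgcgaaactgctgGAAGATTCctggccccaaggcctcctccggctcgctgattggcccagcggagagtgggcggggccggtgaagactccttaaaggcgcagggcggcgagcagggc
Hsph1, chr5:149636337-149636586, minus strand: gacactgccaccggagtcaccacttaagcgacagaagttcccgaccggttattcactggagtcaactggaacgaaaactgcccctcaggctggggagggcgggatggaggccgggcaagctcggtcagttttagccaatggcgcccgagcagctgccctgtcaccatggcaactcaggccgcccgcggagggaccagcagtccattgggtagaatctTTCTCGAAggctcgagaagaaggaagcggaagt
Hspd1 and Hspe1, chr1:55087933-55088147, plus strand, between the starts of these divergent genes: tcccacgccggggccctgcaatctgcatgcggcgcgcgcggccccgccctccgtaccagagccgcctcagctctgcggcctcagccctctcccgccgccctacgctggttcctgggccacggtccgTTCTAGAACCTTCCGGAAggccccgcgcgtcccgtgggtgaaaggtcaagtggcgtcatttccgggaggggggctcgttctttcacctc
Hspa1a and Hspa1b differed at 3 of the 250 bases, and each held 1 match of the 2-unit element. Hsph1 held 1 match. The stretch shared by Hspd1 and Hspe1 held 3 overlapping 2-unit matches, which form 2 overlapping 3-unit matches. No match was found in either entry of Dnajb1 or in the other entry of Hspd1, chr1:55088244-55088493. Of the 32841 promoter windows of the same length in the table, 12.8% held the 2-unit element and 0.466% the 3-unit element. A match is a description of letters and not a bound site.

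On each array 35.8% to 37.7% of rows were detected, at a detection p under 0.05, and arrays correlated with each other at a Pearson r of 0.963 to 0.993. Signals were background-corrected and quantile-normalised with neqc, put on the log2 scale, and compared with limma, adjusted by Benjamini-Hochberg over the 10821 genes detected on at least 3 arrays. The column headers number the SSA arrays 4, 5 and 6 and the sham arrays 7, 8 and 12, so an effect of that order cannot be told apart from SSA. Of 13 LT-HSC markers 10 were detected on all 6 arrays and 1, Procr, on none. Markers of other cells were present: the summed signal above background of 11 neutrophil and monocyte markers was 14687 to 18281 on SSA arrays and 22913 to 25700 on sham arrays, and that of 6 eosinophil markers 379 to 1222 and 2278 to 4502, so that for both lists the groups did not overlap. For 7 T and NK markers, of which the T cell genes Cd3d, Cd3e, Cd3g, Cd4 and Cd8a were detected on no array, the sum was 1766 to 2089 and 2166 to 4086. Nearly all of it was 1 gene, Nkg7, a gene of cytotoxic granules, with 1758.6 of the 1766 on SSA 1 and 4065.1 of the 4086 on sham 3. Most of the eosinophil sum was Prg2, the major basic protein gene, at 284.5 to 1027.7 and 1793 to 3489.5. Among neutrophil and monocyte markers, Mpo (3284.7 to 4914.4 and 5530.9 to 7815.1) and Ctsg (1293.9 to 2175 and 2846.9 to 3802.7) separated the groups. The others overlapped, among them S100a8 at 278.2 to 2109.8 on SSA arrays and 1240.5 to 5128.1 on sham arrays. The sums were not normalised between arrays. For 9 erythroid markers the sum was 5751 to 14233 and 11315 to 21244, and it also overlapped for megakaryocyte, B lineage, macrophage and stromal markers. The neutrophil and monocyte sum, the eosinophil sum and Nkg7 thus separated the groups, with SSA the lower, and their part in the results below was not tested.

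All 9 heat shock genes that could be tested stood lower after SSA than after sham, by a log2 difference from -0.17 for Hspa8 to -2.52 for Hspa1a, and none passed the test. The tenth, Hsp90aa1, was detected on too few arrays to be tested in the main setting and stood at -0.19 when the filter was lifted. The median over the 9 genes was -0.53, against 0.00077 over all genes tested, and 49.2% of all genes stood lower. In limma no member had an adjusted p under 0.05, with values from 0.530 to 0.876. None of the 10821 genes tested had one (0% called), and the smallest adjusted p among them was 0.464. At an unadjusted p under 0.05 were 4 members, Hsph1, Hspd1, Hsp90ab1 and Hspa9, all of them lower after SSA, against 3.07% of all genes that were lower at this level. In a bulk sample fewer cells of a type and less RNA per cell cannot be told apart.

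**Figure D1:**
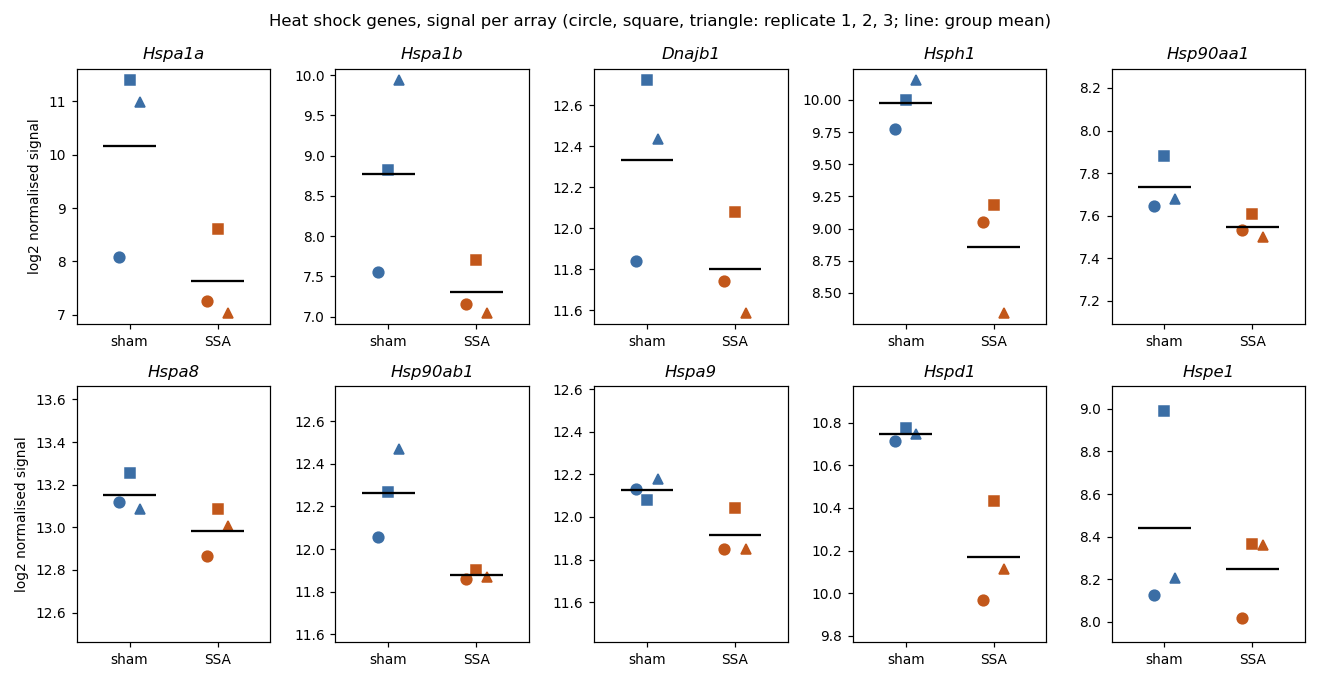
Normalised signal (log2) of the 10 heat shock genes on each array, with sham in blue and SSA in orange, replicates 1 to 3 as circle, square and triangle, and the group mean as a line. The y axes differ in position and length between genes and do not start at 0. For Hsph1, Hsp90aa1, Hsp90ab1, Hspa9 and Hspd1 every SSA array lies below every sham array, and for Hspa1a, Hspa1b and Dnajb1 the array sham 1 lies below SSA 2.

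Of the inducible genes of the cytosol, Hspa1a and Hspa1b had the widest spread within groups of any member tested, with an SD of 1.41 and 0.88. Hspa1a encodes the stress-inducible Hsp70, which is scarce in unstressed cells. In raw signal, SSA 1 to 3 read 225.7, 809.8 and 128.6, and sham 1 to 3 read 571.8, 2622.1 and 3050.9. On SSA 3 it was not detected, at a detection p of 0.821, and it was detected on the other 5 arrays. The groups overlapped, since sham 1 was dimmer than SSA 2. The standard error of the mean over its 43 to 50 beads per array was 3.6 to 119.6 signal units, which covers the error within an array only. On the normalised log2 scale the values were 7.26, 8.61 and 7.04 after SSA and 8.09, 11.39 and 10.99 after sham. The means were 7.64 ± 0.85 and 10.16 ± 1.802 (SD, n = 3). The log2 difference was -2.52 ± 1.03 (SE), or 5.75-fold lower, with a 95% confidence interval from -5.17 to 0.13 and an adjusted p of 0.623 in limma. Leaving out 1 array at a time moved it from -3.56 (without sham 1) to -1.91 (without sham 2), and the SSA 3 value behind it was not above background. The SD within groups was larger than that of 99.9% of the genes tested.

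Hspa1b, the neighbouring copy that encodes a nearly identical Hsp70, showed the same order of SSA arrays. In raw signal, SSA 1 to 3 read 184.7, 453.2 and 132.9 and sham 1 to 3 read 367.4, 705.6 and 1735.3, and the gene too was not detected on SSA 3, at a detection p of 0.396. Probe sequences were not used here, so how far the 2 probes tell these genes apart is uncertain. The normalised values were 7.16, 7.71 and 7.05 after SSA and 7.55, 8.82 and 9.94 after sham, a log2 difference of -1.46 ± 0.64 (SE) with an adjusted p of 0.634 in limma. Sham 1 lay below SSA 2 for this gene as well, and sham 3 was the highest array. The difference was -0.86 without sham 3 and -2.09 without sham 1. Both genes lay near the background on the dimmest arrays, where neqc, which infers its background from the detection p, compresses differences. The alternative named here background read from the detection scores takes mean and SD directly from the signals at set scores. With it the differences were -3.65 for Hspa1a and -2.93 for Hspa1b, with adjusted p of 0.563 for each in limma.

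**Figure D2:**
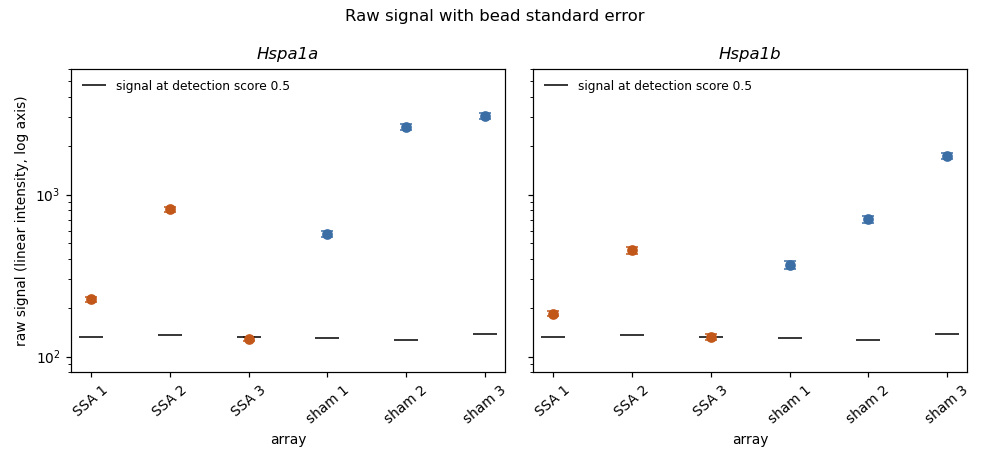
Raw signal of Hspa1a and Hspa1b on each array (log axis), with the standard error over beads as error bars, SSA in orange and sham in blue. The short black lines mark the signal at which the detection score is 0.5, and only SSA 3 lies at that line for either gene.

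Dnajb1, the J-domain partner that is induced with Hsp70, was bright on every array. Its normalised log2 signal was 11.74, 12.08 and 11.59 after SSA and 11.84, 12.72 and 12.44 after sham. Sham 2 and sham 3 lay above all SSA arrays and sham 1 lay among them. The log2 difference was -0.53 ± 0.27 (SE), with an adjusted p of 0.655 in limma, and it was -0.33 without sham 2 and -0.78 without sham 1.

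Hsph1 encodes Hsp110, which resets the Hsp70 cycle by nucleotide exchange. In raw signal, SSA 1 to 3 read 850.9, 1056.4 and 600 and sham 1 to 3 read 1286.3, 1224.2 and 1923.8, and Hsph1 was the only one of the 9 members whose groups did not overlap before normalisation. In 2.94% of all genes every raw SSA signal lay below every raw sham signal. Normalised, it stood at 9.05, 9.18 and 8.35 after SSA and at 9.77, 10.003 and 10.15 after sham. Here sham 1 lay with the other sham arrays, unlike for Hspa1a. The log2 difference of -1.12 ± 0.25 (SE), 2.17-fold lower, had a 95% confidence interval from -1.77 to -0.47, an unadjusted p of 0.0070 and an adjusted p of 0.530 in limma.

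Hsp90aa1, the inducible Hsp90, had raw signals of 331.8, 412.3 and 315.4 after SSA and of 402.6, 419.1 and 503.1 after sham. Although these lie well over the signal at which the detection score is 0.5, 126.1 to 137.6 on the 6 arrays, its detection p was under 0.05 on only 2 arrays, SSA 3 and sham 2. Once the detection filter was lifted, or replaced by one on signal, the log2 difference was -0.19. In the fit with the filter on signal its SE was 0.097 and its adjusted p in limma 0.580, and every SSA array lay below every sham array after normalisation, as did 6.39% of all genes with that filter.

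Hsp90ab1 and Hspa8 are the constitutive genes of the cytosol. Hsp90ab1, the Hsp90 that is made at all times, stood at 11.86, 11.90 and 11.87 after SSA and at 12.06, 12.27 and 12.47 after sham on the normalised log2 scale. The SSA arrays lay within 0.05 of each other and all lay below the lowest sham array. The log2 difference was -0.39 ± 0.11 (SE), with an unadjusted p of 0.0156 and an adjusted p of 0.576 in limma. Hspa8, the constitutive Hsp70 that also uncoats clathrin vesicles, stood at 12.86, 13.08 and 13.004 after SSA and at 13.12, 13.26 and 13.08 after sham. Its groups touched, since SSA 2 and sham 3 had equal values after quantile normalisation to the digits shown. The log2 difference was -0.17 ± 0.076 (SE), with an adjusted p of 0.636 in limma, and it was -0.11 without SSA 1 and -0.22 without SSA 2.

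Of the mitochondrial genes, Hspd1 showed the clearest separation. It encodes Hsp60, the barrel of the chaperonin, and stood at 9.97, 10.43 and 10.11 after SSA and at 10.71, 10.77 and 10.75 after sham. The 3 sham arrays were close together and all lay above SSA 2, the highest SSA array. The log2 difference was -0.57 ± 0.13 (SE), 1.49-fold lower, with a 95% confidence interval from -0.90 to -0.25, an unadjusted p of 0.00590 and an adjusted p of 0.530 in limma. It was -0.47 with the background read from the detection scores and -0.44 with no background correction.

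Hspa9, the Hsp70 of mitochondria, stood at 11.85, 12.04 and 11.85 after SSA and at 12.13, 12.08 and 12.18 after sham. The groups did not overlap, by a gap between SSA 2 and sham 2 that was smaller than the spread within the SSA group. The log2 difference was -0.22 ± 0.065 (SE), with an adjusted p of 0.576 in limma. Hspe1, the lid of the chamber, shares its promoter region with Hspd1 but did not share its pattern of arrays. It stood at 8.02, 8.37 and 8.36 after SSA and at 8.12, 8.99 and 8.21 after sham, so that sham 2 alone lay above the SSA arrays. Its log2 difference of -0.19 ± 0.27 (SE) had a 95% confidence interval from -0.88 to 0.50 and an adjusted p of 0.876 in limma, and it was 0.084 without sham 2 and -0.35 without sham 1.

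**Figure D3:**
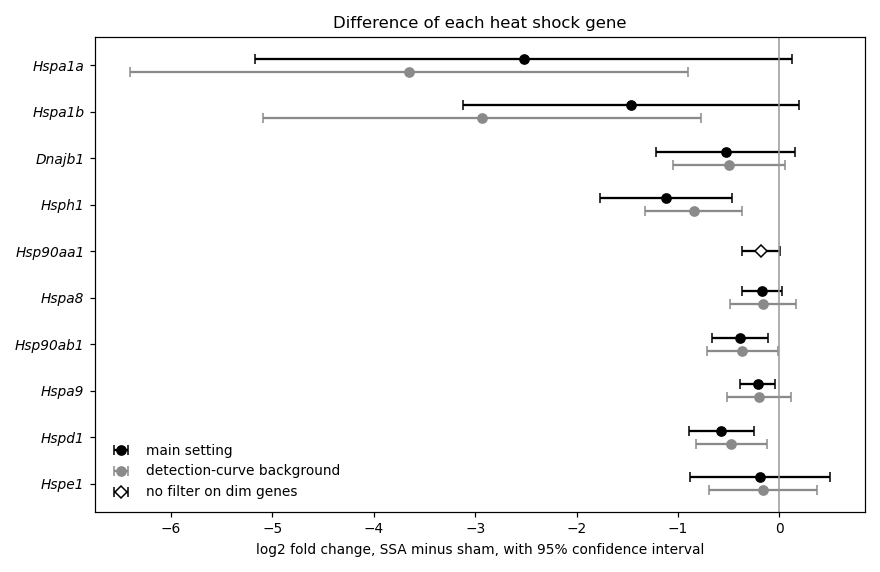
Log2 fold change of each heat shock gene, SSA minus sham, with its 95% confidence interval, in the main setting (black), with the background read from the detection scores (grey) and, for Hsp90aa1, with no filter on dim genes (open diamond). All points lie below 0, and the intervals of Hspa1a and Hspa1b are the widest.

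Of the 9 members, 7 fell into 2 patterns of arrays. In Hspa1a, Hspa1b and Dnajb1 the arrays sham 2 and sham 3 were high and sham 1 lay with the SSA arrays. In Hsph1, Hsp90ab1, Hspa9 and Hspd1 every SSA array lay below every sham array, as did 6.09% of all genes. Hspa8 and Hspe1 had neither pattern. The 4 genes of the second pattern kept this separation in all 15 other settings that used the 6 arrays. Most of these settings reuse the same normalised values or keep the ranks within each array before quantile normalisation, so it could hardly change there. It also held with a median shift per array and with cyclic loess, where it could change (5.93% and 6.69% of all genes). The raw signals of Hsp90ab1, Hspa9 and Hspd1 overlapped, so that their separation appeared only after normalisation between arrays. Averaged over all rows, SSA 1 to 3 read 404.8, 456.1 and 411.7 in raw signal and sham 1 to 3 read 426.1, 384.7 and 502.6, with SSA 2 and sham 3 the brightest. With 1 array left out, the number of members whose SSA arrays lay wholly below the sham arrays depended on which array it was. It was 4 without SSA 1, SSA 3 or sham 2 (8.25%, 11.8% and 11% of all genes), 5 without sham 3 (8.69%), 7 without sham 1 (16.4%) and 8 without SSA 2 (11.4%). A difference between the 2 patterns was not tested.

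**Figure D4:**
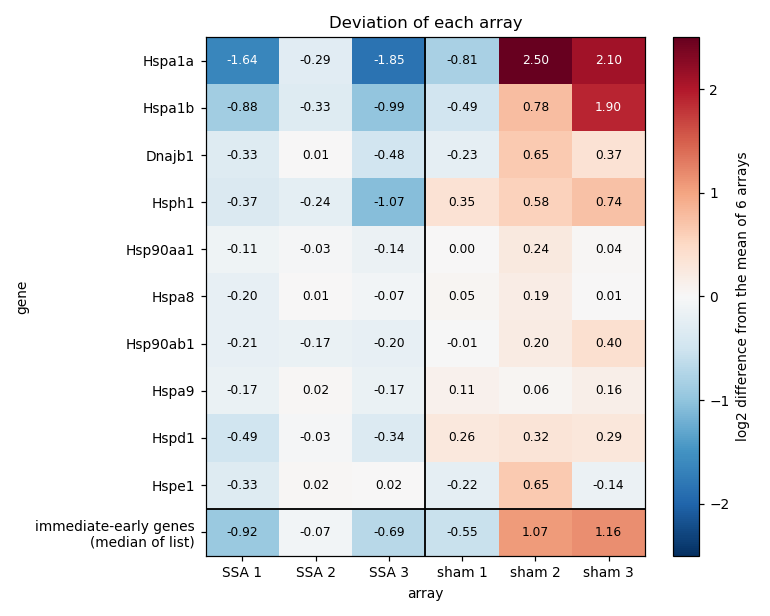
Log2 difference of each array from the mean of the 6 arrays, for the 10 heat shock genes (Hsp90aa1 without the detection filter) and for the median of 17 immediate-early genes. Red is above and blue below the mean, on a scale that ends at 2.5 on either side. Sham 1 is blue for Hspa1a, Hspa1b, Dnajb1, Hspe1 and the immediate-early genes, and red for Hsph1, Hspa9 and Hspd1. It lies near the mean for Hsp90aa1, Hspa8 (0.051) and Hsp90ab1 (-0.014).

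In the immediate-early genes, transcription factors and phosphatases that respond within minutes to stimuli, sham 1 also lay with the SSA arrays. Inducible Hsp70 and immediate-early genes are both known to respond to the handling of cells as well as to signals in the animal. The list median relative to the mean of all arrays was -0.92, -0.066 and -0.69 after SSA and -0.55, 1.07 and 1.16 after sham. SSA 2 was above sham 1, as for Hspa1a. Of 17 kept genes 16 stood lower, with a median log2 difference of -0.94 and none past the test in limma. Its genes of smallest p were the AP-1 subunit genes Jund (-0.18, or -1.58 with the background read from the detection scores) and Jun (-1.60, or -2.51), the phosphatase gene Dusp1 (-1.98) and Zfp36 (-2.20), which encodes a protein that speeds decay of transcripts. Jund lay near the background on the SSA arrays, at 7.08 to 7.09. The list median was -1.39 with the background read from the detection scores. In the main setting, leaving out 1 array at a time moved the list median from -1.58 (without sham 1) and -1.51 (without SSA 2) to -0.60 (without sham 3). What part this has in the values of the heat shock genes was not tested.

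Array patterns were compared by Pearson r of the log2 signal over the 6 arrays, as a description. The members and names that were clones, provisional or unmatched were left out of the ranking, but not of the shares below. The genes most like Hspa1a, Hspa8 and Hspd1 were then listed. For Hspa1a these were Srsf4, a splicing factor gene, Hk1, the gene of hexokinase 1, Bcl2l11, which encodes the death protein Bim, Ccdc88c and the immediate-early gene Klf2, with r from 0.989 to 0.998. An r over 0.9 with Hspa1a was found for 3.03% of all genes, with Hspa8 for 1.16% and with Hspd1 for 0.952%. For Hspa8 they were Lrp6, Mcts1, Sh3bgrl, Ociad1 and Tomm7 (0.983 to 0.995), and for Hspd1 they were Rpl7a-ps3, Tmem9, Zwilch, Pcgf6 and the histone chaperone gene Nasp (0.975 to 0.986). Pearson r does not reflect the size of a difference. The log2 difference was -0.025 for Bcl2l11, -0.044 for Ccdc88c, -0.019 for Lrp6 and -2.43 for Klf2.

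For the lists of other chaperone genes the median log2 difference ran from -0.13 for HSF1 targets to 0.18 for small heat shock proteins, or from -0.25 for chaperones of the endoplasmic reticulum to 0.38 for small heat shock proteins with the background read from the detection scores. No gene of any list passed limma, and each count below stands beside 49.2% of all genes lower and an overall median of 0.00077. Every SSA array lay below every sham array for 6.09% of all genes, and the share with every SSA array above is not given here. Of 12 kept targets of HSF1 outside the members 10 stood lower, with a median log2 difference of -0.13. Leaving out 1 array at a time moved this median from -0.15 (without SSA 1) to -0.028 (without sham 2), with 8 to 10 of the 12 lower. The largest difference in the main setting was that of Stip1, the adaptor that hands clients from Hsp70 to Hsp90. It stood at 10.005, 10.34 and 10.14 after SSA and 10.57, 11.08 and 10.57 after sham. All SSA arrays lay below all sham arrays, and the difference was -0.58 ± 0.18 (SE), with an adjusted p of 0.577 in limma. The polyubiquitin gene Ubb stood at -0.12 with groups that did not overlap, the Hsp90 activator Ahsa1 at -0.25, and the small heat shock protein gene Hspb8 at 0.084, or 0.55 with the background read from the detection scores.

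Of 17 Hsp90 co-chaperones 12 stood lower, with a median of -0.022, or -0.12 with the background read from the detection scores. Some of these genes, Stip1 and Ahsa1 among them, are also counted in the HSF1 targets above. Besides Stip1, Pih1d1 stood at 0.23, the mitochondrial import factor Tomm34 at -0.16 and Nudcd2 at 0.099, or 0.59 in that other setting. Among partners of Hsp70, 6 of 10 J-domain genes stood lower, with a median of -0.017, and the J-domain gene Dnajb2 stood higher on every SSA array, at 0.42 ± 0.12 (SE) with an adjusted p of 0.576 in limma. Dnajc21, Dnajc2 and Dnajc13 stood at -0.082, -0.093 and -0.048, the first at -0.16 with the background read from the detection scores. Of the exchange and binding factors 4 of 8 stood lower, with a median of 0.0018, or 0.032 with the background read from the detection scores. There Bag3, an HSF1 target that links Hsp70 to autophagy, stood at -0.20, Bag1 at 0.080, Bag6 at 0.18 and Hspbp1 at -0.15.

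Of the other Hsp70 and Hsp110 genes only 2 of 8 were detected often enough to be kept, Hspa12b and Hspa2, both higher after SSA. Hspa12b stood at 7.76, 7.78 and 7.84 after SSA and at 7.64, 7.55 and 7.54 after sham, so that every SSA array lay above every sham array. Its log2 difference was 0.22 ± 0.038 (SE), with an unadjusted p of 0.00235, below that of any member, and an adjusted p of 0.483 in limma. In either direction 852 of the 10821 genes had an unadjusted p under 0.05 in limma. Hspa2 stood at 0.10, and the setting with the background read from the detection scores gave 0.42 for Hspa12b and 0.20 for Hspa2. Of the small heat shock protein genes 2 of 9 were kept, Hspb6 at 0.27 and Hspb8. Of the heat shock factors and their regulators Hsbp1, Hsf4 and Hsf2 were kept, at -0.10, 0.0070 and -0.0065. The last 2 lay near the background, and the other setting gave 0.14 and -0.12. The gene of HSF1 itself was not kept.

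In the mitochondrial list of chaperone partners and proteases 10 of 16 genes stood lower, with a median of -0.012, or -0.074 with the background read from the detection scores. Dnaja3, the J-domain partner of Hspa9, stood at -0.12, the protease subunit gene Afg3l2 at -0.11 (-0.36 in the other setting), and the 2 subunits of the Clp protease, Clpx and Clpp, at 0.053 (0.12 in the other setting) and 0.15. In the list of the cytosolic chaperonin CCT and prefoldin 7 of 12 stood lower, with a median of -0.0062, or -0.10 in the other setting. Its subunits pointed to both sides: Cct4 stood at 0.22 ± 0.070 (SE) and Cct6a at -0.23 ± 0.089 (SE), each with groups that did not overlap, at adjusted p of 0.581 and 0.623 in limma. Cct8 stood at -0.18 and Pfdn4 at 0.15.

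Of the chaperones of the endoplasmic reticulum 8 of 10 stood lower, with a median of -0.10, or -0.25 with the background read from the detection scores. Dnajb11 stood at -0.29, Creld2 at -0.33 and Sdf2l1 at -0.17 (-0.42 in the other setting). Hspa5, the Hsp70 of this compartment, stood at -0.029, or -0.56 in the other setting, with groups that did not overlap. It lay near the background, at 7.06 to 7.07 after SSA and 7.09 to 7.10 after sham in the main setting. Of 10 stress genes of other pathways 7 stood lower, with a median of -0.047, or -0.076 in the other setting. Atf4 and Sqstm1 stood at -0.45 and -0.34, Trib3 at 0.21 and the metallothionein gene Mt2 at 0.024, with 0.84 and 0.34 for these last genes in the other setting. Mt2 lay near the background too, at 7.09 to 7.15 after SSA and 7.09 to 7.11 after sham.

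**Figure D5:**
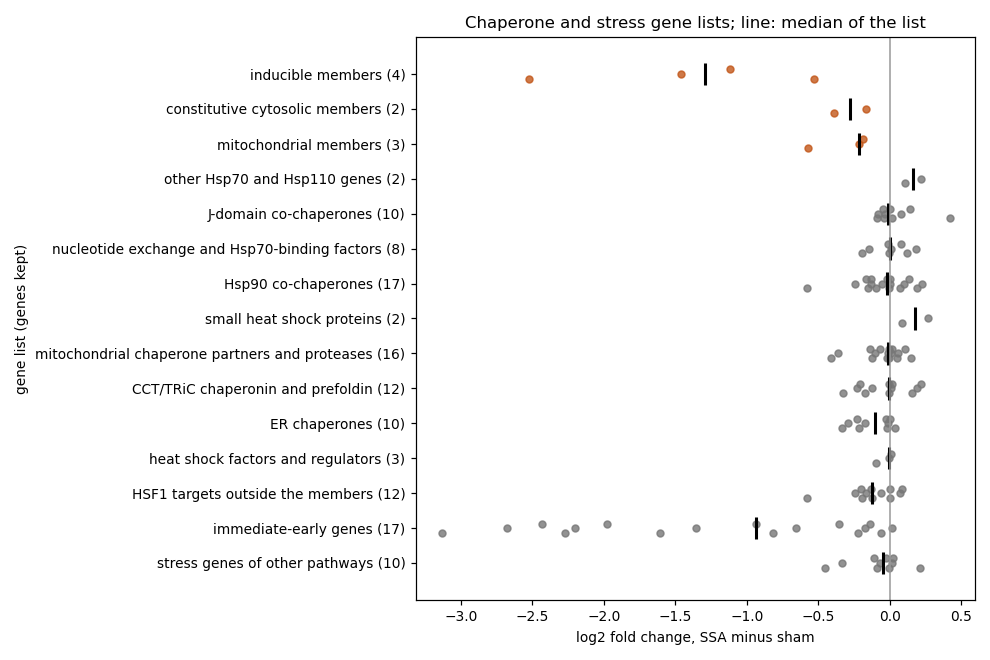
Log2 fold change, SSA minus sham, of each kept gene (points) in the lists of heat shock genes (orange) and of other chaperone and stress genes (grey), with the list median as a black line. Numbers in brackets are kept genes, and a gene can be in several lists. The inducible members and the immediate-early genes reach below -1 and all other lists stay between -0.6 and 0.5.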

How the data were processed

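The authors deposited linear intensity values from Illumina MouseWG-6 arrays, read with GenomeStudio 1.8.0 without normalization, per the file headers; no background had been subtracted. Rows are target names, with a median of 44 beads per row. They also deposited a detection score, read here as 1 minus a detection p. The deposited series matrix intensity equals the raw signal minus a constant per array, 126.6 to 138.1. It was used for marker sums, with values below 0 set to 0, and as an alternative. Names were matched to symbols through the RefSeq table.

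neqc of limma 3.58.1 in R 4.3.3 added an offset of 16, quantile-normalised and took log2, so log2 fold changes of dim genes are compressed. It estimated a background mean of 168 to 204.2, while the detection scores gave 126.1 to 137.6, which an alternative uses. Rows with detection p under 0.05 on at least 3 arrays were kept, the brightest row per gene. limma (lmFit, eBayes, two-sided) was tested on simulated data. Up to 4 genes of smallest p per list were named. Members, lists and rules were chosen with earlier results of these data known. The 6 array SD columns hold no values. No header gives slides, so no batch could be tested. The number of arrays limits precision.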

Additional observations from a re-analysis of the deposited data

How the results depend on the processing

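Across 21 other settings no heat shock gene passed limma, with adjusted p from 0.0711 (Hsph1 with array weights) to 0.999. In every one Hspa1a, Hspa1b, Dnajb1, Hsph1, Hspa8, Hsp90ab1, Hspa9 and Hspd1 stood lower after SSA. Settings that change only the filter, the variance model or the block leave the log2 differences of these members as they were. No sign could change there. Leaving out 1 array at a time gave 8 to 9 lower members and a median from -0.67 to -0.38. Hspe1 then ran from -0.35 to 0.084, Dnajc2 from -0.21 to 0.023, Dnajc13 from -0.092 to 0.010 and Hsf2 from -0.015 to 0.0023. With array weights Dnajc2 stood at 0.11 and Dnajc13 at 4.9e-05. Over all genes limma called 0 in the main setting, with 852 at an unadjusted p under 0.05. It called 1 with the background read from the detection scores, with normexp by maximum likelihood, with the series matrix values and with array weights, and 2 with a trended robust variance. The cause was not tested.

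With the replicate block the median of the members was -0.53, 0 members and 0 genes were called and 887 genes had an unadjusted p under 0.05. Same-numbered arrays deviated from their group means with correlations of 0.504, -0.0642 and -0.291, and 2 of 6 arrays correlated best with their own number, so the numbers were not taken as pairs. With array weights 3054 genes had an unadjusted p under 0.05, and 452 did with a median shift per array. Signal over background limits Hspa1a and Hspa1b on SSA 3, where neither was detected.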
